A study of Bos taurus with 4 samples.

Results

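PRKG1 and PDE4D, a kinase and a phosphodiesterase of cyclic nucleotide signalling, were described through the noncoding candidate transcripts that overlap them in 4 skeletal muscles of cattle. Members were all transcripts whose identifier names PRKG1 or PDE4D as the gene, split by Cufflinks class into those opposite an exon (antisense, class x) and those inside an intron (class i). They came to 217 of 63845 transcripts. PRKG1 held 216 of them, 213 intronic and 3 antisense. PDE4D held 1 antisense transcript and 0 intronic ones. The pair had been picked with levels from these same tables in view, so the values are given as a description and nothing was tested on them.

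The groups were longissimus thoracis (along the back), a scapula muscle (shoulder), gluteus (rump) and an intercostal muscle (between the ribs). All came from healthy, unrelated female Hereford cattle aged 18 months, fattened together in 1 feedlot on corn silage. Each muscle had 1 library, prepared by Illumina protocols from the total RNA of 3 animals combined in equal parts. No library measures the spread between animals, so differences are described by size against counting error only.

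The second messengers cyclic AMP and cyclic GMP carry hormone, nerve and nitric oxide signals inside cells. PRKG1 encodes the cyclic GMP-dependent protein kinase I, best known for relaxing the smooth muscle of vessel walls, where it acts on calcium release and on myosin phosphatase. PDE4D encodes a phosphodiesterase that breaks down cyclic AMP and so ends signals such as those of beta-adrenergic receptors, which in skeletal muscle act on growth and metabolism.

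Levels are given as FPKM, which divides reads by transcript length and library size, and the parentheses after a level hold its exact 95% Poisson interval, computed from read numbers recovered from the FPKM steps. The intervals cover counting error only, because PCR copies without molecular identifiers are not independent molecules. The recovered reads came to between 1136247 in gluteus and 2110057 in longissimus thoracis, with a median of 10 to 16 per listed transcript. The tables hold values above 0 only, so a transcript is either listed in a muscle or not. The sources used here do not say whether reads were counted by strand, and the level of an antisense transcript may include messenger RNA of the gene itself. A transcript counted as higher or lower in a muscle when the log2 ratio of its FPKM to the median of the other 3 muscles, with 1 added to both, reached 1 in size (2-fold). At least 1 library had to hold 1 FPKM or more. All 217 members passed that minimum. Where a transcript was listed in 1 or 2 muscles, the median of the other 3 was 0 for each muscle that listed it. A listed value of 1 FPKM or more then counted as higher, so such calls restate the listing.

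Markers were read through noncoding transcripts too, since protein-coding genes were not analysed here. Transcripts at 8 of 20 skeletal muscle genes, among them NEB, ACTN2 and MYF6, summed to between 30425 and 58921 RPM (reads-per-million, scaled to the same library total as the FPKM), while those at 2 of 8 adipocyte genes reached at most 12.9 and those at 3 of 8 leukocyte genes at most 28.8. The other markers of these lists, among them ADIPOQ, PLIN1, FABP4, CD68 and CD14, had no transcript, so the low sums say little about those cells. ACTA1, MYH2, CKM and 9 other skeletal muscle markers had no transcript in these tables. Of those with transcripts, NEB gave 17180 to 42303 RPM and ACTN2 8308 to 16209, and no other passed 308. TTN, DMD, RYR1 and MYH7 reached at most 54.9, so the skeletal muscle sum was carried by NEB and ACTN2. The libraries are of whole tissue, in which fewer cells of a type and less RNA per cell cannot be told apart.

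The antisense transcript of PDE4D (TCONS_00114731) was one of 2 members with at least 20 reads in every library, and the one that varied more between muscles. Its level was 1791 (1766–1817) FPKM in longissimus thoracis, 264 (253–276) in scapula muscle, 2186 (2148–2225) in gluteus and 596 (578–615) in the intercostal muscle. Gluteus and longissimus thoracis were the high pair and lay within 1.22-fold of each other, the intercostal muscle was intermediate, and scapula muscle was lowest. No 2 of the 4 intervals overlapped. The gluteus level was 8.27-fold that of scapula muscle and 3.67-fold that of the intercostal muscle. Longissimus thoracis was 6.77-fold above scapula muscle and 3.01-fold above the intercostal muscle. On the log2 scale with 1 FPKM added, the transcript was 1.59 above the median of the other 3 in longissimus thoracis and 1.87 above it in gluteus, against -2.76 in scapula muscle and -1.59 in the intercostal muscle. All 4 values passed the 2-fold rule.

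These levels rested on many reads, with 19553 in longissimus thoracis, 2047 in scapula muscle, 12393 in gluteus and 4022 in the intercostal muscle. Among the antisense transcripts listed in a muscle, that of PDE4D was 16th of 1813 by FPKM in longissimus thoracis and 18th of 1883 in gluteus. It was 81st of 1940 in the intercostal muscle and 201st of 2112 in scapula muscle. Of 1037 antisense transcripts with at least 20 reads in every library, 59 (5.69%) had a wider ratio of highest to lowest level than the 8.27 of PDE4D, and the median ratio was 2.35.

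The profile of PDE4D over the muscles was compared with that of 400 antisense transcripts with at least 200 reads in each library, by Euclidean distance between centred log2 profiles over the 4 muscles. That measure for antisense transcripts was added after the levels had been seen. The nearest profiles were those opposite ENAH, an actin regulator, DNAJB4, a heat shock protein of the HSP40 family, and PPTC7, a mitochondrial phosphatase. The transcript opposite ENAH, at a distance of 0.46, measured 794 FPKM in longissimus thoracis, 89.7 in scapula muscle, 639 in gluteus and 183 in the intercostal muscle. That opposite DNAJB4, at 0.57, measured 2255, 212, 1699 and 487 FPKM in the same order. Both were high in longissimus thoracis and gluteus like PDE4D, but with longissimus thoracis the higher of the pair. PPTC7, at 0.96, had gluteus highest, with 786, 256, 925 and 315 FPKM.

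**Figure D1:**
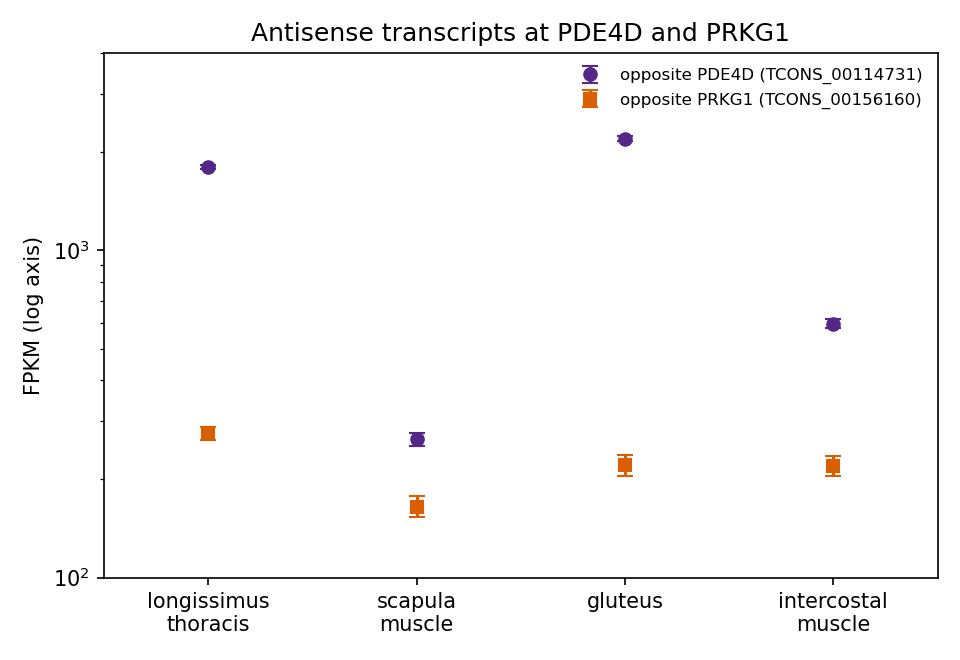
Level in FPKM (log axis) of the antisense transcripts of PDE4D (circles) and PRKG1 (squares) in each muscle, 1 library a muscle, with bars for the exact 95% Poisson interval. PDE4D runs from 264 to 2186 FPKM, while PRKG1 stays between 165 and 275 FPKM.

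The main antisense transcript of PRKG1 (TCONS_00156160) varied far less. Its level was 275 (262–289) FPKM in longissimus thoracis, 165 (153–177) in scapula muscle, 221 (205–238) in gluteus and 219 (204–234) in the intercostal muscle. Longissimus thoracis was the highest and scapula muscle the lowest, and gluteus and the intercostal muscle did not differ beyond their counting intervals. The highest level was 1.67-fold the lowest, and 835 of the 1037 antisense transcripts (80.5%) had a wider ratio. Its log2 ratios to the median of the other 3 were 0.33, -0.42, 0.01 and -0.01 in the order longissimus thoracis, scapula, gluteus and intercostal muscle, so no muscle passed the 2-fold rule. In the dot plot of both antisense transcripts, PDE4D lay above PRKG1 in every muscle, least so in scapula muscle. The profiles nearest to PRKG1 by the same distance lay opposite GYG1, the glycogenin that primes glycogen synthesis, at 0.11, SPCS2, a signal peptidase subunit, at 0.12, and ZNF24, a zinc finger protein, at 0.15.

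An intergenic transcript that shares the locus number of this antisense transcript (TCONS_00151044) was lowest in scapula muscle as well. It measured 180.3 (168–193) FPKM in longissimus thoracis, 93.3 (83.1–104) in scapula muscle, 139 (125–155) in gluteus and 159 (145–175) in the intercostal muscle. The intervals of gluteus and the intercostal muscle overlapped here too.

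The other PRKG1 antisense transcripts were at the limit of detection. TCONS_00151065 had 21.8 (10.9–38.9) FPKM from 11 reads in longissimus thoracis and 5.58 (0.676–20.2) from 2 reads in scapula muscle, and was not listed elsewhere. TCONS_00156174 was listed in gluteus alone, at 42.2 (13.7–98.5) FPKM from 5 reads. Of the 4 antisense members, 2 were called higher in longissimus thoracis, 1 in scapula muscle, 2 in gluteus and 0 in the intercostal muscle, where 21.8%, 27.5%, 20.6% and 20.1% of all antisense transcripts were. Called lower were 0, 1, 1 and 2 in the same order, against 30.8%, 14%, 18.6% and 16.9% of all antisense transcripts.

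Inside its introns PRKG1 carried more transcripts than any other gene in these tables. Its 213 intronic transcripts at 200 locus numbers led 5520 genes with at least 1, ahead of CMSS1 with 194, IMMP2L with 159, ZBTB20 with 157 and NFIA with 146. That count includes 30 outside the main block of locus numbers described below. The block itself holds 186 PRKG1 transcripts of both classes, fewer than the 194 of CMSS1. By summed intronic RPM, PRKG1 was 6th of the 5520 genes in longissimus thoracis, 16th in scapula muscle and 26th in both gluteus and the intercostal muscle. The authors' identifiers placed 208 of them in 1 reference transcript (ENSBTAT00000030539) and 5 in another (ENSBTAT00000024490).

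Most of these intronic transcripts were seen in a single muscle. Longissimus thoracis listed 119 of 213 (55.9%), scapula muscle 112 (52.6%), gluteus 56 (26.3%) and the intercostal muscle 68 (31.9%). Over all 26452 intronic transcripts the shares were 46.5%, 58.0%, 28.1% and 38.6%. Over the 2958 transcripts of the 35 other genes with at least 50 intronic transcripts they were 54.7%, 66.2%, 31.6% and 44.4%. The share in longissimus thoracis was thus above that of all intronic transcripts but close to that of these genes, 16 of which had a higher one. In the other 3 muscles the share of PRKG1 was below both. The deepest library was that of longissimus thoracis, and the part of depth in this was not tested. A single muscle listed 127 PRKG1 transcripts (59.6%), 43 (20.2%) were in 2 muscles, 30 (14.1%) in 3 and 13 (6.10%) in 4. Those listed once fell to longissimus thoracis in 55 cases, scapula muscle in 46, gluteus in 11 and the intercostal muscle in 15. The share listed once was 55.0% over all intronic transcripts and 44.3% over those of the 35 genes. Of those 35 genes, 3 had a higher share than PRKG1. Longissimus thoracis and scapula muscle had 46 PRKG1 transcripts in common, 38.7% of the list of the former and 41.1% of that of the latter, where all intronic transcripts gave 45.1% and 36.1%. Of the 56 in gluteus, 35 (62.5%) were also in longissimus thoracis and 32 (57.1%) in scapula muscle, against 46.1% and 62.8% over all intronic transcripts.

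Listed transcripts of PRKG1 were at low levels. Their median was 31.3 FPKM in longissimus thoracis (range 1.75 to 146), 25.2 in scapula muscle (1.32–69.3), 21.5 in gluteus (1.37–88.6) and 19.8 in the intercostal muscle (1.53–94.8). The medians of all listed intronic transcripts were 30.8, 25.8, 23.7 and 25.7 FPKM in the same order, so PRKG1 lay closest to them in longissimus thoracis and scapula muscle. The median recovered reads behind a listed value were 16, 9, 6.5 and 7.5, and 8, 16, 11 and 8 transcripts were recovered at 1 read. These read numbers are minima. Of the 213 transcripts, 51 had a recovered length under 200 nucleotides, among them TCONS_00153268 with 12, at 55.1 FPKM in scapula muscle from 1 recovered read. Such values may rest on more reads than given. At this depth, a transcript that is not listed in a muscle cannot be told from one expressed at a low level there.

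By the 2-fold rule 108 of the 213 (50.7%) were called higher in longissimus thoracis, where 38.4% of all intronic transcripts were. For the 127 listed in 1 muscle and the 43 listed in 2, the median of the other 3 was 0 wherever they were listed. No listed value was below 1.32 FPKM, so for these a higher call restates the listing and its ratio is no measured fold. In scapula muscle 90 (42.3%) were called higher against 46.7% of all intronic transcripts, in gluteus 32 (15.0%) against 17.9%, and in the intercostal muscle 44 (20.7%) against 27.5%. Called lower were 23 in longissimus thoracis (10.8% against 20.3% of all intronic transcripts), 30 in scapula muscle (14.1% against 11.5%), 51 in gluteus (23.9% against 26.2%) and 48 in the intercostal muscle (22.5% against 19.5%). The shares of PRKG1 in gluteus lay near the background. The counts of lower calls depended on the reference: against the mean of the other 3 they were 97, 116, 171 and 165 (45.5%, 54.5%, 80.3% and 77.5%), where 56.6%, 49.8%, 77.6% and 67.6% of all intronic transcripts were lower. With 10 FPKM added in place of 1, 11 (5.16% against 11.5%) were lower in longissimus thoracis, 25 (11.7% against 15.3%) in gluteus and 29 (13.6% against 10.7%) in the intercostal muscle. Higher calls in longissimus thoracis were 94 (44.1% against 34.3%) with the mean and 96 (45.1% against 34.5%) with 10 added. The median log2 ratio in longissimus thoracis was 1.25 for PRKG1 and 0 for all intronic transcripts. In the other 3 muscles the median for PRKG1 was 0. The 35 other genes with many intronic transcripts had 41.6% called higher in longissimus thoracis and 49.5% in scapula muscle.

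**Figure D2:**
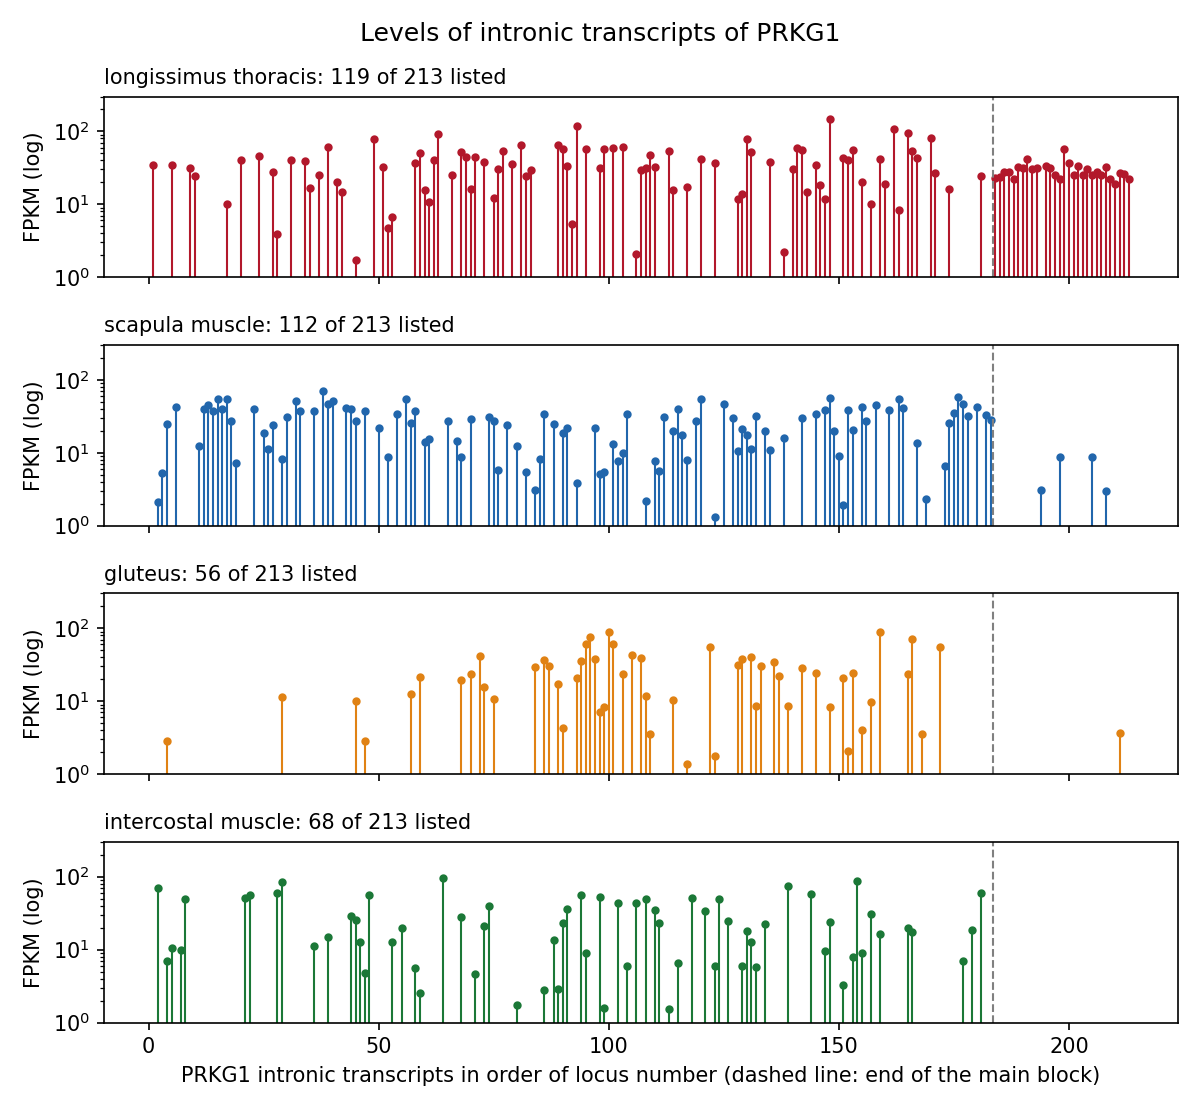
Level in FPKM (log axis) of each of the 213 PRKG1 intronic transcripts, ordered by locus number, in 4 panels for the 4 muscles; a missing stem means that the transcript was not listed. Longissimus thoracis lists 119 and gluteus 56, and almost all stems right of the dashed line, the end of the main block of locus numbers, are in longissimus thoracis.

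Summed over all 213, PRKG1 intronic reads were highest in longissimus thoracis. The sum was 1299 (1251–1348) RPM in longissimus thoracis, 782 (738–828) in scapula muscle, 469 (429–511) in gluteus and 477 (440.5–516) in the intercostal muscle. Longissimus thoracis and scapula muscle stood apart from each other and from the rest, while gluteus and the intercostal muscle overlapped. The highest sum was 2.77-fold the lowest. Against the median of the other 3 the log2 ratio was 1.45 in longissimus thoracis, 0.71 in scapula muscle, -0.74 in gluteus and -0.71 in the intercostal muscle. As a share of all intronic reads of a library, with Wilson intervals, PRKG1 took 0.733% (0.707–0.761) in longissimus thoracis, 0.384% (0.363–0.407) in scapula muscle, 0.332% (0.304–0.362) in gluteus and 0.270% (0.249–0.292) in the intercostal muscle. Reads can have been assigned to several transcripts, and these sums may then hold them repeatedly.

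The lead of longissimus thoracis was also present in the 13 intronic transcripts listed in every muscle, while the place of scapula muscle was not. Their sum was 322 (299–347) RPM in longissimus thoracis, 109 (93.1–127) in scapula muscle, 115 (95.6–136) in gluteus and 104 (87.2–123) in the intercostal muscle. The last 3 overlapped. Of these 13 transcripts, 8 were highest in longissimus thoracis, 2 in scapula muscle, 1 in gluteus and 2 in the intercostal muscle. Their median log2 ratio was 1.54 in longissimus thoracis, -0.54 in scapula muscle, -1.25 in gluteus and -1.08 in the intercostal muscle, where the 1818 intronic transcripts of all genes listed in every muscle had 0.35, 0.16, -0.36 and -0.08. Most of the 13, and all 8 that were highest in longissimus thoracis, belong to the first run of transcript numbers described below. In that run 89 of 103 transcripts were highest in longissimus thoracis, so these 13 give no separate view of its lead.

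**Figure D3:**
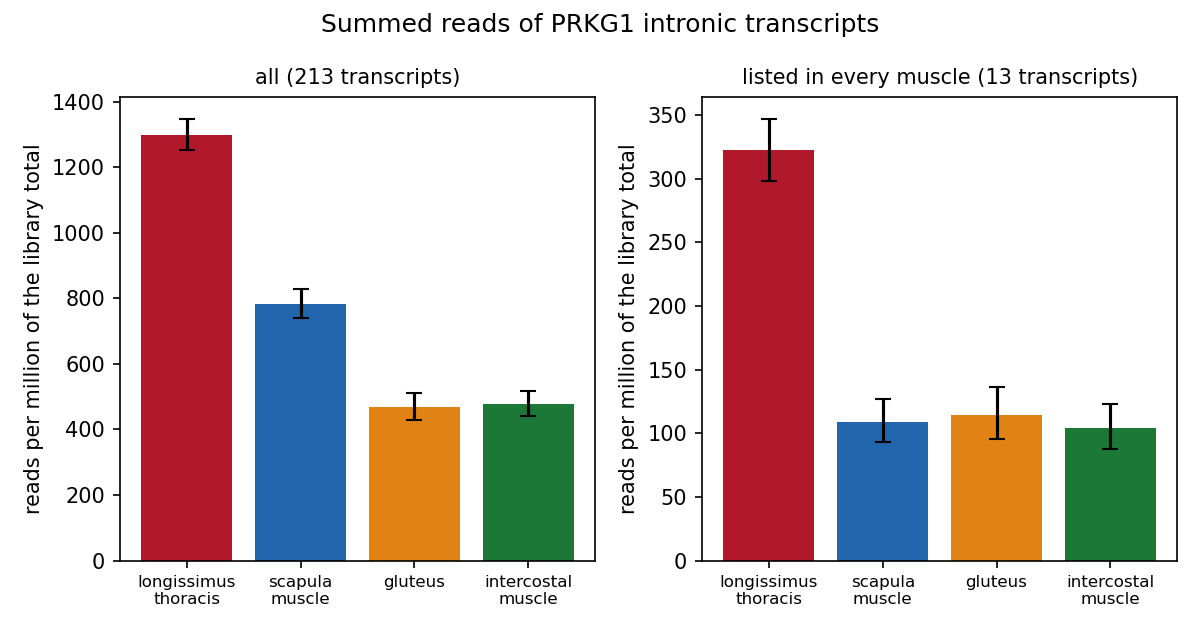
Summed PRKG1 intronic RPM in each muscle, for all 213 transcripts (left) and for the 13 listed in every muscle (right), with exact 95% Poisson intervals as bars. Longissimus thoracis is highest in both panels, at 1299 and 322, and scapula muscle is second on the left only.

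Among 47 genes with at least 10 intronic transcripts and 200 intronic reads in each library, the profile of summed levels most like that of PRKG1 was that of MED13L, a subunit of the Mediator kinase module, at a distance of 0.17. MED13L summed to 1129, 730.2, 471 and 475 RPM in the order longissimus thoracis, scapula, gluteus and intercostal muscle. CPED1 followed at 0.28 with 965, 543, 425 and 366, and RBPJ, the DNA-binding factor of Notch signalling, at 0.43 with 568, 394, 268 and 310.2.

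Single intronic transcripts differed from each other in the muscle they favoured. TCONS_00151182 had the highest level of all in any muscle, with 146 (119–178) FPKM in longissimus thoracis, 55.6 (36.7–80.9) in scapula muscle, 8.44 (1.74–24.7) in gluteus and 23.6 (11.3–43.4) in the intercostal muscle. TCONS_00151141, with the most reads, had 117 (98.2–139) FPKM in longissimus thoracis, 3.79 (0.782–11.1) in scapula muscle and 20.7 (10.7–36.2) in gluteus, and the table gave none for the intercostal muscle. TCONS_00151147 had 56.4 (46.6–67.6) FPKM in longissimus thoracis against 5.48 (2.37–10.8), 8.42 (3.85–16.0) and 1.57 (0.19–5.68) in scapula muscle, gluteus and the intercostal muscle. In these 3 the interval of longissimus thoracis lay above those of all the other muscles that listed the transcript.

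The same held for 5 more of the transcripts listed in every muscle. TCONS_00151163 measured 36.4 FPKM in longissimus thoracis and 6.04 or less elsewhere, and TCONS_00151185 measured 43.7 there and at most 20.7. TCONS_00151113 measured 51.8 in longissimus thoracis and at most 28.3 in the rest, TCONS_00151136 measured 56.8 and at most 23.4, and TCONS_00151187 measured 55.6 and at most 24.1. In TCONS_00151169 longissimus thoracis, at 51.4 (40.1–64.8) FPKM, overlapped with gluteus at 40.4 (27.1–58.0), and both were above scapula muscle at 11.2 (5.60–20.1) and the intercostal muscle at 12.9 (6.43–23.0).

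Other transcripts listed in every muscle peaked elsewhere. TCONS_00151167 was highest in gluteus, at 37.4 (23.2–57.2) FPKM, which overlapped scapula muscle at 20.9 (11.9–33.9) but not longissimus thoracis at 13.9 (7.77–22.9) or the intercostal muscle at 5.98. TCONS_00151146 was highest in the intercostal muscle, at 53.1 (31.5–83.9) FPKM, with 31.0 (18.1–49.7) in longissimus thoracis, 5.15 in scapula muscle and 7.03 in gluteus. TCONS_00154959 had the same order, at 50.1 FPKM in the intercostal muscle, 31.0 in longissimus thoracis, 11.9 in gluteus and 2.18 in scapula muscle. In the last of these transcripts and in TCONS_00151146, the intervals of the intercostal muscle and longissimus thoracis overlapped. TCONS_00153298 was low in longissimus thoracis, at 1.75 FPKM from 1 read, against 27.1 (13.6–48.6) in scapula muscle, 10.1 in gluteus and 25.5 in the intercostal muscle. TCONS_00153369 peaked in scapula muscle at 42.0 (30.4–56.6) FPKM, with 20.1 in longissimus thoracis, 4.00 in gluteus and 8.96 in the intercostal muscle. It lay just inside the 2-fold limit for longissimus thoracis, with a log2 ratio of 1.08, and TCONS_00151176, with 56.3, 30.2 and 28.4 FPKM in longissimus thoracis, scapula muscle and gluteus, lay just outside at 0.96.

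Among transcripts listed in 1 muscle only, TCONS_00151194 reached 109 (82.6–141) FPKM and TCONS_00151103 reached 91.3 (66.0–123) in longissimus thoracis. TCONS_00153292 reached 69.3 (44.4–103) FPKM in scapula muscle. TCONS_00156185 at 87.7 (57.8–128) and TCONS_00156184 at 75.7 (55.0–102) were listed in gluteus only, and TCONS_00154978 at 87.7 (48.0–147) in the intercostal muscle only. Each of these rested on 14 to 57 reads, and all 4 muscles had transcripts listed nowhere else. TCONS_00156185 shares its locus number with TCONS_00151147, which every muscle listed. TCONS_00156184 shares its locus number with TCONS_00151143, which 3 muscles listed. For this pair, being listed in gluteus only holds for the transcript and not for the locus number.

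A pair of transcripts with a strong lead in 1 muscle were listed in 1 other. TCONS_00153374 had 54.1 (38.1–74.6) FPKM in scapula muscle and 8.30 (3.58–16.4) in longissimus thoracis. TCONS_00154972 had 74.9 (50.9–106) FPKM in the intercostal muscle and 8.63 (1.78–25.2) in gluteus. In both, the intervals did not overlap.

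Some transcripts skipped 1 muscle or were shared by a pair of muscles. TCONS_00153328 was not listed in longissimus thoracis and had 33.7 FPKM in scapula muscle, 36.1 in gluteus and 2.76 in the intercostal muscle. TCONS_00151076 was missing from gluteus alone, with 61.8, 46.1 and 14.7 FPKM in longissimus thoracis, scapula and intercostal muscle. TCONS_00156186 was missing from the intercostal muscle alone, with 58.4, 13.3 and 61.6 FPKM in longissimus thoracis, scapula muscle and gluteus. TCONS_00156206 had 42.2 FPKM in longissimus thoracis, 88.6 in gluteus and 16.5 in the intercostal muscle, and TCONS_00156209 had 54.1, 70.3 and 17.5 there, with neither listed in scapula muscle. TCONS_00151143 and TCONS_00151196 were likewise not listed in scapula muscle, with 56.7, 59.9 and 8.99 FPKM and 94.1, 23.4 and 19.6 FPKM in the same 3 muscles. TCONS_00153349 was shared by longissimus thoracis at 41.8 FPKM and scapula muscle at 53.8, and TCONS_00156183 by gluteus at 35.3 and the intercostal muscle at 56.1. Many of the named transcripts were picked as the highest or lowest ratios in a muscle, so examples for each muscle were bound to appear. The summed level of the gene does not stand for each of its transcripts.

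The numbering of transcripts, which the authors' assembly gave, went with the muscle in which a PRKG1 transcript was listed. When the 216 are put in the order of transcript number, the locus number starts over 3 times and so marks 4 runs. In the first run of 103 (TCONS_00151046 to TCONS_00153160) 101 were listed in longissimus thoracis, 36 in scapula muscle, 26 in gluteus and 25 in the intercostal muscle. In the second, of 71, all 71 were listed in scapula muscle, 11 in longissimus thoracis, 10 in gluteus and 16 in the intercostal muscle. The third run of 23 was listed in the intercostal muscle throughout, with 5, 4 and 4 in longissimus thoracis, scapula muscle and gluteus. Of the 19 in the fourth, 18 were listed in gluteus and 4, 3 and 5 in longissimus thoracis, scapula muscle and the intercostal muscle. The same held outside PRKG1: of 420 further transcripts in the number range of the first run, 412 (98.1%) were listed in longissimus thoracis. The ranges of the other 3 runs held 0 further transcripts. This split was made after the numbers had been seen.

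**Figure D4:**
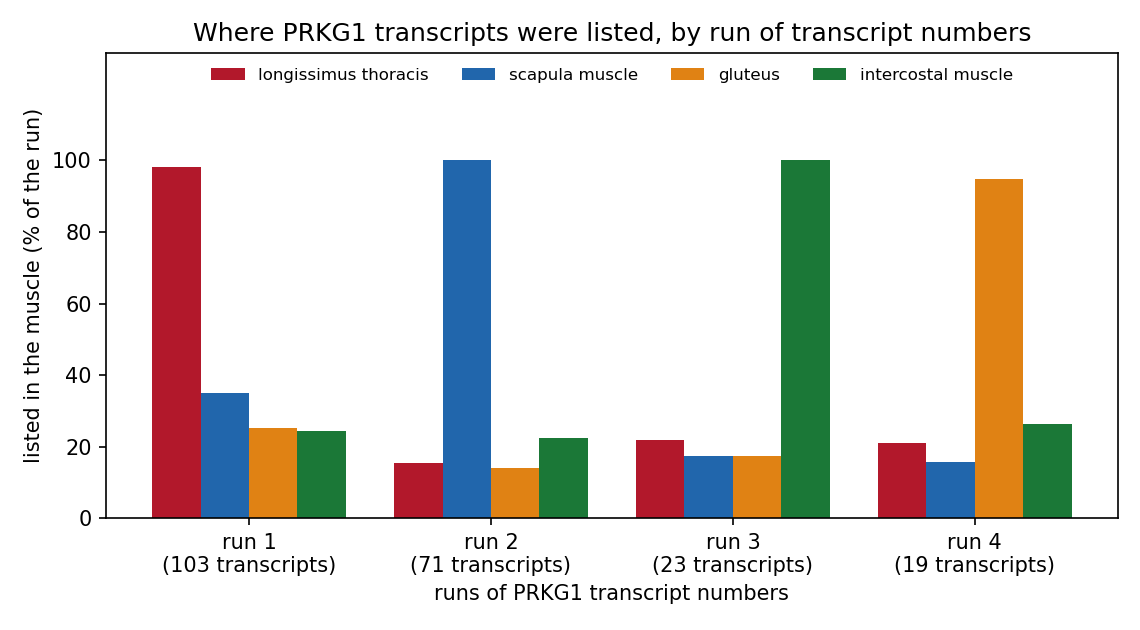
Share (%) of PRKG1 transcripts listed in each muscle within the 4 runs of transcript numbers; the 4 colours stand for the muscles. In each run 1 muscle lists 94.7% to 100% and each of the others 35.0% or less.

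The 14 locus numbers that held 2 or 3 PRKG1 transcripts showed how far the pieces overlap in use. In 5 of the 14 at least 1 muscle listed more than 1 of the transcripts, and in the other 9 each transcript was listed in a muscle or muscles of its own.

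By locus number, 186 of the 216 PRKG1 transcripts formed 1 block (114085–114396) with no transcript of another gene inside it. The remaining 30, numbered 116178 to 118333, were almost all from longissimus thoracis. That muscle listed 29 of these 30, scapula muscle 4, gluteus 1 and the intercostal muscle 0, and 25 (83.3%) were in longissimus thoracis alone. The 680 other transcripts within this span lay at 116185 to 117986, between the first of the 30, at 116178, and the next, at 117990. Of those 680, 17.4% were in longissimus thoracis alone. None lay among the PRKG1 transcripts from 117990 on, so the shares are not of the same stretch of numbers. Without those 30, which are all intronic, 79 PRKG1 intronic transcripts were called higher in longissimus thoracis, against 108 of 213 (50.7%) with them. The intronic transcripts left numbered 45, 45, 46 and 47 in the parts of the block described below. Their share called higher was thus below 50.7%. It lay nearer to the 38.4% of all intronic transcripts and the 41.6% in other genes with 50 or more of them. The summed level in longissimus thoracis without those 30 was 1.29 above the median of the other 3 on the log2 scale. No coordinates come with the identifiers, so neither set was placed on the genome.

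Within the block, the muscles differed in where their intronic reads fell. When the locus numbers were cut into 4 parts of near equal size, longissimus thoracis had 110 RPM in the first part, 304 in the second, 387 in the third and 363 in the last. Scapula muscle was more even, with 183, 156, 169 and 269. Gluteus was nearly empty in the first part, with 4.51 against 69.5, 257 and 136 in the rest, and it listed 3 transcripts there against 24 in the third. The intercostal muscle had 124, 86.5, 146 and 121. In the first part scapula muscle was highest, and in the other 3 parts longissimus thoracis was.

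Smooth muscle, in which PRKG1 is best known, was followed by 15 marker genes of smooth muscle and pericytes, of which 9 had 35 transcripts here. They summed to 1463 RPM in longissimus thoracis, 1382 in scapula muscle, 1262 in gluteus and 3455 in the intercostal muscle. Highest for these markers was the intercostal muscle, and the one highest for PRKG1 intronic reads was longissimus thoracis. MYL9, a myosin light chain of smooth muscle, gave 2220 of the 3455 through its antisense transcript. TAGLN, CNN1, MYOCD, DES, NOTCH3 and KCNJ8 had no transcript in any muscle. Transcripts at 5 of 10 endothelial genes summed to 263, 237, 197 and 253 RPM, in the order longissimus thoracis, scapula, gluteus and intercostal muscle. Those at 6 of 10 fibroblast and matrix genes summed to 2185, 8772, 1554 and 4000.3 RPM in that order, of which the antisense transcript of COL3A1, a fibrillar collagen, gave 1728, 8453, 1426 and 3878. Over the full list scapula muscle was thus highest, unlike for PRKG1. Without COL3A1, left out after its values were seen, the sums were 457, 319, 128 and 122, highest in longissimus thoracis and second in scapula muscle. FBN1, the fibrillin of elastic microfibrils, gave most of that except in gluteus, with 381, 203, 48.8 and 66.0 over 20 intronic transcripts. Of the 32 fibroblast transcripts, 20 were called higher in longissimus thoracis, 14 in scapula muscle, 5 in gluteus and 5 in the intercostal muscle. Of all intronic transcripts 38.4%, 46.7%, 17.9% and 27.5% were, and 31 of the 32 are intronic. FBN1 alone holds 20 of the 32. By gene, COL1A1, COL6A3 and FBN1 summed highest in longissimus thoracis, COL3A1 and DCN in scapula muscle and PDGFRA in gluteus. COL1A2, LUM, FN1 and POSTN had no transcript. The part of these cells in the PRKG1 levels was not tested.

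The rest of cyclic nucleotide signalling was read through 116 other genes, of which 65 had 384 transcripts. Their calls lay near those of the whole tables. Called higher were 138 in longissimus thoracis (35.9%), 172 in scapula muscle (44.8%), 59 in gluteus (15.4%) and 111 in the intercostal muscle (28.9%), where 37.2%, 43.2%, 18.6% and 26.4% of all transcripts were. Called lower were 77, 37, 95 and 62, against 21.3%, 11.3%, 23.7% and 17.9% of all transcripts. A single muscle listed 220 of the 384 (57.3%). In the counts per list that follow, values are in the order longissimus thoracis, scapula, gluteus and intercostal muscle, and the lists of fewer than 30 transcripts are too small for their shares to be read against these backgrounds.

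Among the ligands, receptors and G proteins, the levels were carried by antisense transcripts. That of GNAS, the stimulatory G protein that couples receptors to adenylyl cyclase, measured 1577 FPKM in longissimus thoracis, 3297 in scapula muscle, 2177 in gluteus and 3137 in the intercostal muscle. That of NPR3, the clearance receptor of natriuretic peptides, measured 62.4, 104, 223 and 148 FPKM. Longissimus thoracis was lowest for both, unlike at PDE4D. The 10 transcripts of nitric oxide and natriuretic peptide genes were called higher in 6, 2, 1 and 1 and lower in 1, 0, 0 and 0. Longissimus thoracis thus had 60% higher, where 37.2% of all transcripts were, but 8 of the 10 belong to 1 gene, NOS1AP, an adaptor of neuronal nitric oxide synthase, with 37, 7, 0 and 11 intronic reads.

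Of the cyclases, which make the messengers, only intronic transcripts were found, and few. The soluble guanylyl cyclase subunits GUCY1A1 and GUCY1B1 held 11, of which 5, 4, 0 and 2 were called higher and 0 lower in every muscle. GUCY1A1 had 36, 28, 0 and 36 reads, so gluteus was the muscle without any. The adenylyl cyclases ADCY2, ADCY3, ADCY4, ADCY6 and ADCY9 held 9, called higher in 1, 3, 2 and 6 cases and lower in 3, 2, 1 and 0. ADCY6 had 24 reads and ADCY4 25 in the intercostal muscle, against 0 to 3 in the others.

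Effectors other than PRKG1 followed other orders. The antisense transcript of PRKAR2A, a regulatory subunit of protein kinase A, measured 493 FPKM in longissimus thoracis, 695 in scapula muscle, 857 in gluteus and 1100.2 in the intercostal muscle. That of PRKAR1A, another regulatory subunit, measured 184, 223, 325 and 317 FPKM. The 3 antisense transcripts of POPDC3, a cyclic AMP-binding membrane protein of muscle, ran from 81.1 to 1036 FPKM, each lowest in gluteus. The 23 transcripts of the 7 effector genes besides PRKG1 were called higher in 7, 6, 5 and 5 cases and lower in 1, 2, 6 and 3. PKIA, the main inhibitor of protein kinase A in muscle, had the muscle order of PDE4D at its antisense transcript, with 1169, 475, 1355 and 804 FPKM. The 4 transcripts of the kinase inhibitors were called higher in 2, 0, 1 and 2 cases and lower in 1, 3, 1 and 0.

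The anchoring proteins, which tether protein kinase A and phosphodiesterases, had 34 intronic transcripts, called higher in 14, 14, 5 and 9 cases (41.2%, 41.2%, 14.7% and 26.5%, against 38.4%, 46.7%, 17.9% and 27.5% of all intronic transcripts) and lower in 4, 3, 7 and 6 (11.8%, 8.82%, 20.6% and 17.6%, against 20.3%, 11.5%, 26.2% and 19.5%). These shares of higher calls were close to the background. AKAP9 summed to 81.1 intronic RPM in longissimus thoracis, 17.2 in scapula muscle, 21.7 in gluteus and 24.3 in the intercostal muscle. AKAP6, which sits at the nuclear envelope and sarcoplasmic reticulum of muscle, summed to 6.10, 114, 9.93 and 62.2. The former was highest in longissimus thoracis, like PRKG1, and the latter lowest there.

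The antisense transcripts of other phosphodiesterases lay below that of PDE4D in every muscle. The antisense transcript of PDE5A, which breaks down cyclic GMP, measured 45.2 FPKM in longissimus thoracis, 4.55 in scapula muscle, 15.5 in gluteus and 20.9 in the intercostal muscle. It was lowest in scapula muscle as at PDE4D, but rested on 4 to 56 reads. That of PDE7A measured 131, 110.3, 86.1 and 196 FPKM and that of PDE8B 34.2, 68.6, 70.2 and 47.9 FPKM, with scapula muscle lowest in neither. The 107 transcripts of the 15 other phosphodiesterase genes, 104 of them intronic, were called higher in 45, 48, 12 and 27 cases (42.1%, 44.9%, 11.2% and 25.2%). Of all intronic transcripts 38.4%, 46.7%, 17.9% and 27.5% were. They were called lower in 24, 7, 29 and 15 (22.4%, 6.54%, 27.1% and 14.0%), against 20.3%, 11.5%, 26.2% and 19.5% of all intronic transcripts. PDE4B, of the same subfamily as PDE4D, summed to 82.1, 58.9, 37.9 and 19.7 RPM over 13 intronic transcripts, while PDE4D had none. PDE7B, with the most intronic reads of the family, summed to 139, 120.4, 38.8 and 112.

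Targets of PRKG1 did not share 1 order of muscles. KCNMA1, the large-conductance calcium-activated potassium channel that the kinase opens, had 58 intronic transcripts, which summed to 202 RPM in longissimus thoracis, 464 in scapula muscle, 245 in gluteus and 394 in the intercostal muscle. PPP1R12A, the targeting subunit of myosin phosphatase, summed to 201, 116, 85.8 and 59.2 over 21 intronic transcripts, and its antisense transcript measured 114, 56.3, 39.4 and 71.8 FPKM. Longissimus thoracis was thus highest for PPP1R12A in both classes, as for PRKG1, and lowest for KCNMA1. The antisense transcript of GTF2I, a transcription factor bound by the kinase, was lowest in longissimus thoracis, at 219 FPKM against 673, 517 and 666. Over the list, 109 transcripts, 106 of them intronic, were called higher in 32, 55, 19 and 36 cases (29.4%, 50.5%, 17.4% and 33.0%). Of all intronic transcripts 38.4%, 46.7%, 17.9% and 27.5% were. They were called lower in 30, 12, 29 and 19 (27.5%, 11.0%, 26.6% and 17.4%), against 20.3%, 11.5%, 26.2% and 19.5% of all intronic transcripts. KCNMA1 holds 58 of the 109.

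In the CREB pathway, the arm through which cyclic AMP reaches genes, the antisense transcript of NR4A3 was high in the same muscles as PDE4D. NR4A3 is a nuclear receptor induced by beta-adrenergic signals in muscle, and the transcript measured 78.3 (71.3–85.8) FPKM in longissimus thoracis, 1.20 (0.389–2.80) in scapula muscle, 180.2 (165–196) in gluteus and 3.57 (1.90–6.11) in the intercostal muscle. That of CREM, a CREB-related factor, measured 693, 319, 953 and 823 FPKM, lowest in scapula muscle and highest in gluteus, but with the intercostal muscle above longissimus thoracis. The antisense transcript of ATF2 had longissimus thoracis highest, with 94.5, 51.1, 57.7 and 77.2 FPKM. Over its 2 intronic transcripts NR4A3 had 66, 6, 0 and 0 reads, so gluteus, the highest at its antisense transcript, had none. The 61 transcripts of the list, 57 of them intronic, were called higher in 23, 34, 10 and 19 cases (37.7%, 55.7%, 16.4% and 31.1%). Of all intronic transcripts 38.4%, 46.7%, 17.9% and 27.5% were. They were called lower in 10, 7, 21 and 19 (16.4%, 11.5%, 34.4% and 31.1%), against 20.3%, 11.5%, 26.2% and 19.5% of all intronic transcripts.

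**Figure D5:**
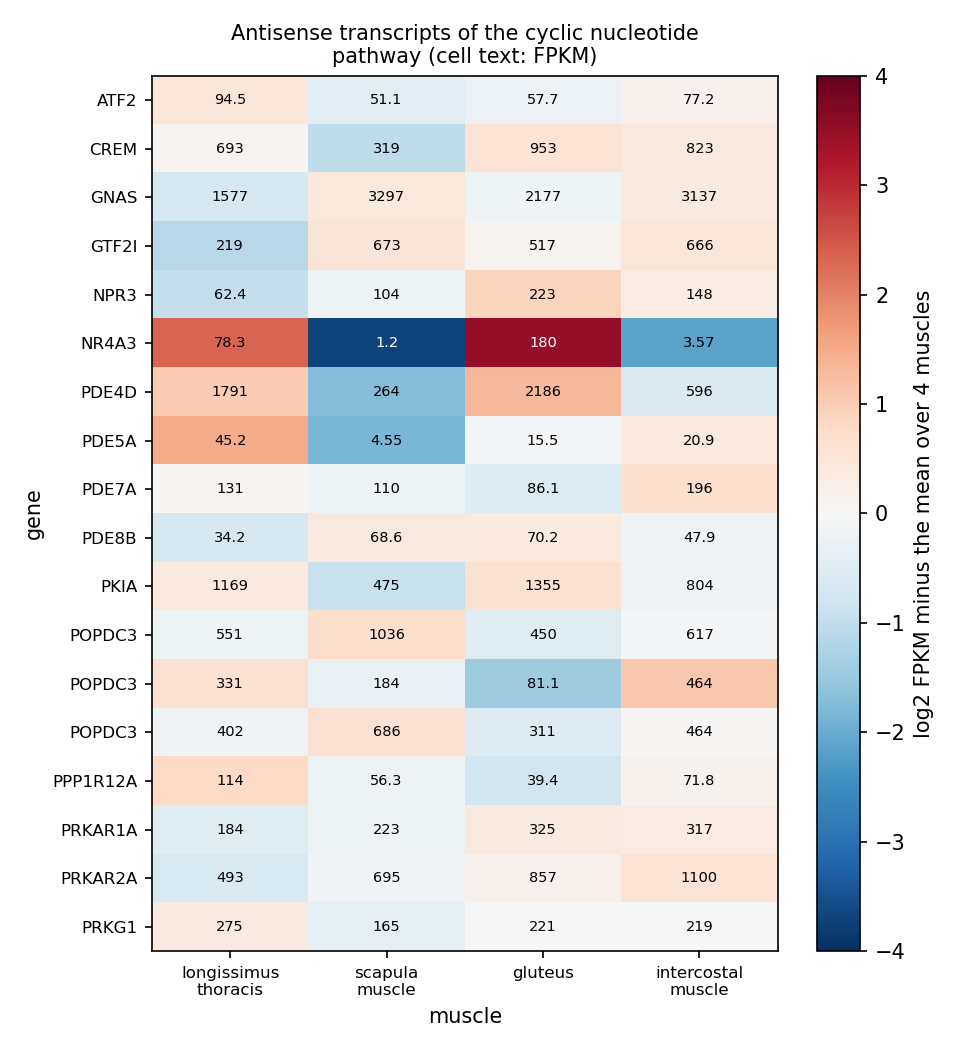
Antisense transcripts listed in every muscle, for PRKG1, PDE4D and the other cyclic nucleotide genes reported here: colour gives log2 FPKM minus the transcript's mean over the 4 muscles, and each cell prints the FPKM. PDE4D, NR4A3 and PKIA are highest in gluteus, second in longissimus thoracis and lowest in scapula muscle, and the PRKG1 row is pale, between 165 and 275 FPKM.

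Of 60 pathway genes with intronic transcripts besides PRKG1, the summed intronic level was at least 2-fold above each other muscle for 14 (23.3%) in longissimus thoracis, 12 (20%) in scapula muscle, 4 (6.67%) in gluteus and 7 (11.7%) in the intercostal muscle. Over all 5520 genes with intronic transcripts the shares were 20.8%, 20.1%, 6.90% and 10.7%, so the pathway was close to the background throughout. In longissimus thoracis these were NOS1AP, GUCY1B1, GNAI1, RAPGEF4, AKAP9, PDE3B, PDE6C, PDE6D, PDE11A, CREB3, CREM, CRTC2, NR4A1 and NR4A3, of which 7 had 0 reads in every other muscle. NR4A1, with 123 reads, and AKAP9, with 173, had the most reads among them there. In scapula muscle they were NPR3, GNAI3, PRKAR2B, AKAP7, AKAP8, PDE1A, PDE7A, PDE10A, MRVI1, PPP1R12C, ATF2 and CRTC1. Of these 12, 6 had 0 reads in every other muscle, and 4 rested on fewer than 10 reads in scapula muscle (PRKAR2B on 1, PPP1R12C on 7, NPR3 and CRTC1 on 8). At such depth a muscle with 0 reads cannot be told from one with a low level. PDE1A led with 148 reads in scapula muscle against 53, 0 and 31 in longissimus thoracis, gluteus and the intercostal muscle. In gluteus they were ADRBK2, ADCY9, PKIG and AKAP10, with 18 to 30 reads there, and in the intercostal muscle ADCY2, ADCY4, ADCY6, BVES, PDE4C, PDE8B and PPARGC1A, with 17 to 45 reads.

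At least 2-fold below each other muscle were 4 genes in longissimus thoracis (6.67%), 0 in scapula muscle, 9 in gluteus (15%) and 3 in the intercostal muscle (5%), where 8.32%, 2.77%, 14.2% and 6.87% of all 5520 genes were. Those of longissimus thoracis, AKAP10, PDE4C, PDE5A and PPARGC1A, all had 0 reads there, but the muscle with the fewest reads among the others had only 6, 6, 1 and 12, so the low place is not resolved for the first 3. For PDE5A the antisense transcript was highest in longissimus thoracis, opposite to its intronic sum. The 9 in gluteus were NOS1AP, GUCY1A1, ADCY3, PDE1A, PDE7B, PDE8B, CREB1, CREBBP and NR4A1, of which NOS1AP and ADCY3 had fewer than 10 reads in 1 of the other muscles. The 3 of the intercostal muscle were ADRBK2, PDE7A and ATF2. PDE7A had 2 intronic reads there and 9 in gluteus, and its antisense transcript was highest in the intercostal muscle, opposite to its intronic sum. PRKG1 itself was in neither group, since its sum in longissimus thoracis was less than 2-fold above that in scapula muscle.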

How the data were processed

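Noncoding candidate transcripts were measured in 4 pooled libraries, 1 per muscle. The tables deposited by the authors give 1 FPKM value per transcript and library; TopHat2 2.0.9, Cufflinks 2.1.1 and the UMD 3.1 genome build are named in the submitters' processing notes. The sources used here do not state the annotation, the filters or the strand setting. Whole reads and lengths were recovered for all 115374 values within a relative error of 1e-11, taking the smallest whole numbers that fit. Read numbers are therefore minima and the intervals maximal. They summed to 99.0%, 100.01%, 103% and 101% of the library totals implied by the values (2132255, 1511933, 1107493 and 1318644 for longissimus thoracis, scapula muscle, gluteus and the intercostal muscle). What these totals count is not given.

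With 1 library per muscle no test was made and no p-value computed; the 2-fold rule is one of size, on log2(FPKM + 1), which understates the change of low transcripts. Sums are in RPM of those totals. The calling and recovery steps were tested on simulated data. Those data had lengths of at least 200 nucleotides and few transcripts without reads. They do not cover the shorter recovered lengths or the many unlisted values found here. Python 3.11.15, NumPy 2.4.6, pandas 2.3.3, SciPy 1.17.1, numba 0.67.0 and matplotlib 3.10.9 were used.

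Members and gene lists were chosen with earlier results of these data known. Named were every antisense member; of the intronic members, those listed in 4 muscles, the 5 highest by mean FPKM, the 2 highest and 2 lowest ratios per muscle with 10 or more reads in a library, and those nearest the 2-fold limit; the 3 nearest profiles; and, per pathway list, the 2 genes of highest sum and all with a 2-fold intronic difference from each other muscle. Some further pathway genes and the transcripts opposite them were picked after their values were seen. Gene names were used as the files give them, without coordinates or sequences. Alternatives were other pseudocounts, filters, references and scalings. The values of 1 gene of the pathway lists are not reported here.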

Additional observations from a re-analysis of the deposited data

How the results depend on the processing

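Nothing here measures variation between animals, and most PRKG1 intronic values rest on few recovered reads, which limits the ordering of single transcripts. Longissimus thoracis was highest for the PRKG1 intronic sum under every alternative run, and the order of muscles at PDE4D was the same under each of 4 scalings. No paired analysis was possible because each muscle has 1 library. For the same reason no library was left out. The planned results on PDE4D intronic transcripts and on the ratio of PRKG1 to PDE4D intronic sums gave no value, since PDE4D had 0. Setting the median ratio over transcripts listed in 4 muscles to 0 shifted the libraries by 0.13, 0.09, 0.02 and 0.11 on the log2 scale (in the order longissimus thoracis, scapula muscle, gluteus, intercostal muscle, kept below). For the values that moved, the cause was not tested unless the setting itself states it.

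Of PRKG1 intronic transcripts, a pseudocount of 10 left 11 called lower in longissimus thoracis, 25 in gluteus and 29 in the intercostal muscle. Against the mean of the other 3, 97, 116, 171 and 165 were called lower and 21 higher in gluteus. With 10 or more reads required in a library, 57 were called higher in scapula muscle and 29 in the intercostal muscle. That filter also leaves fewer transcripts that can be called, and the background share under it was not computed. Of the 4 antisense members, the mean as reference gave 1 higher and 1 lower in longissimus thoracis, and 0 higher and 2 lower in scapula muscle. A pseudocount of 10 gave 0 higher in scapula muscle, 0 lower in gluteus and 1 lower in the intercostal muscle, and 10 or more reads gave 1 higher in gluteus. For the pathway genes a pseudocount of 10 left 43, 22, 56 and 32 lower.

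The log2 ratio of the PRKG1 intronic sum became 1.19, 0.60, -0.96 and -0.60 with FPKM summed, and 1.55, 0.86, -0.98 and -0.86 scaled by reads in transcripts listed in 4 muscles. Scaled by all intronic reads it was 1.14, 0.21, -0.21 and -0.51. Over the 13 transcripts listed in 4 muscles it was 1.56 and -0.14 in longissimus thoracis and the intercostal muscle, and changed sign in scapula muscle (-0.071) and gluteus (0.071). In longissimus thoracis it was 1.38 without TCONS_00151141, and, in alternatives chosen after seeing the data like all those below, 1.29 without the 30 transcripts outside the block and 1.32 with recovered lengths raised to at least 200 nucleotides.

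For PDE4D, scaling by reads in transcripts listed in 4 muscles gave 1.69 in longissimus thoracis, 1.78 in gluteus and -1.69 in the intercostal muscle, scaling by antisense reads gave 1.66, -2.68, 1.70 and -1.66, and the median rescaling gave 1.96 in gluteus. For the main PRKG1 antisense transcript they were 0.52 and -0.27 in longissimus thoracis and scapula muscle by the first scaling, and 0.56, -0.26, -0.16 and 0.16 by the second, with no muscle past 2-fold.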
